A study of Mus musculus with 4 samples.

Results

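Of 70744 merged ATAC-seq regions of large peritoneal macrophages (LPMs), 10241 were near distal regions called as open chromatin only where RXR was lacking. Their midpoint lay in an intron or between genes, more than 1 kb and at most 50 kb from the nearest transcription start site (TSS), and they held a peak in replicates 1 and 2 of LysMCre+ Rxrab fl/fl but in no replicate of Rxrab fl/fl. The regions were chosen by these peak calls, so the presence and absence of peaks, and the enrichment of the peaks themselves, are given as description and without a test. Calls of this pattern made up 22.8% of all merged regions and 26.2% of the 39132 near distal regions (95% Wilson interval 25.7 to 26.6%, which covers counting error over regions only). The opposite pattern, with peaks in each Rxrab fl/fl library but in no LysMCre+ library, held 24 near distal regions, or 0.0613%.

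LPMs were sorted from 9-week-old C57BL/6 mice, 40000 cells per library, with 2 libraries per genotype (replicates 1 and 3 of Rxrab fl/fl, replicates 1 and 2 of LysMCre+ Rxrab fl/fl). All mice carried floxed Rxra and Rxrb alleles, and in LysMCre+ Rxrab fl/fl mice Cre driven by the LysM promoter deletes both receptors in myeloid cells, macrophages and other myeloid cells alike. The labels do not state that the libraries came from separate mice, so differences between libraries of 1 genotype may be technical only. The study left out libraries that did not cluster with their group, which can make that spread look smaller than it was. The labelled cell type matched its markers, since the TSS regions of Gata6, Icam2 and Timd4 were called in all 4 libraries, whereas no library had a peak at the TSS of the B cell (0 of 4 genes), T cell (0 of 3) or mesothelial (0 of 3) markers. Of the macrophage markers, 4 of 5 were called in each Rxrab fl/fl library and 5 of 5 in each LysMCre+ library, the difference being Csf1r. Of the granulocyte markers, S100a8 was called in every library but Rxrab fl/fl replicate 3.

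RXRs are nuclear receptors that bind DNA as homodimers or as partners of receptors such as RAR, PPAR and LXR, and in macrophages they act mostly at enhancers, which lie in introns and between genes. ATAC-seq uses the Tn5 transposase to cut open DNA, and a peak marks DNA that is free of nucleosomes, often because PU.1, C/EBP, AP-1 or RUNX proteins, the factors that shape macrophage enhancers, are bound there. CTCF, which anchors chromatin loops and domain borders, opens a further class of distal sites found in most cell types.

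The sequences below come from the 3 strongest of these regions with a CTCF match, the strongest with each of the AP-1, PU.1, C/EBP and RUNX motifs, and the strongest with a CTCF match at 4 of the 5 genes that gathered the most regions, as these letters carry the sequence contrasts described further on. Each is 30 bases of mm10, read 5′ to 3′ on the strand given, and the capitals mark the motif match.
Anxa11, CTCF, chr14:25816572-25816601, plus strand: ggaaagtgaCCAGCAGAGGACagcatttag
Tmem242, CTCF, chr17:5429547-5429576, plus strand: cctctcgggCCAGCAGGGGGAgctgtgaat
Ccn5, CTCF, chr2:163787911-163787940, minus strand: ctctcttgaCCACTAGAGGGCcccctagac
Septin9, CTCF, chr11:117238333-117238362, plus strand: tctttttgtCCAGCAGGGGGCggtgcaagc
Prkag2, CTCF, chr5:25011323-25011352, minus strand: gtactgtggCCACTAGGGGGTgctatagcc
N4bp1, CTCF, chr8:86903289-86903318, minus strand: gcgatgcgaCCAGCAGGTGGCgccaagggc
Frmd4b, CTCF, chr6:97417141-97417170, minus strand: ggccttccgCCTCTAGAGGGCagcctcagc
Ccdc80, AP-1, chr16:45070613-45070642, plus strand: agcttcagctaTGACTCAcggagatgcaga
Htr6, PU.1, chr4:139043811-139043840, plus strand: aaaacgggaatGAGGAAGTtccttggttgc
Htr6, C/EBP, chr4:139043756-139043785, plus strand: gcaagatctatTTGCAGAAattgcccacaa
Dis3, RUNX, chr14:99108934-99108963, plus strand: ctgggcgttccTGTGGTTaatgctgtgtag
The gene names are those of the nearest TSS and say nothing of which gene a region acts on. The Anxa11, Ccn5, N4bp1 and Ccdc80 regions were intergenic and the other 6 were in introns, and the PU.1 and C/EBP matches of Htr6 lay in 1 region.

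The libraries differed widely in the number of peaks. Rxrab fl/fl replicates 1 and 3 held 38048 and 16097 peaks, and LysMCre+ replicates 1 and 2 held 65421 and 55581. The lowest local background, which follows the number of tags, per 200 bp was 1.97 and 1.06 tags for these Rxrab fl/fl libraries, against 1.33 and 1.08 tags for the LysMCre+ libraries. Within each genotype, the library with the higher background held more peaks. Rxrab fl/fl replicate 1 had the highest background of all and fewer peaks than either LysMCre+ library. The relation of depth to the number of peaks was not tested. The absence of a peak in the Rxrab fl/fl libraries rested almost wholly on replicate 1: leaving out replicate 3 gave 10259 regions and leaving out replicate 1 gave 20612. When every library was cut to its 16097 most significant peaks, 1085 near distal regions had the pattern, and 97 of the 10241 were among those (0.947%), so that the set as a whole is one of regions below the strongest peaks of the LysMCre+ libraries. The part of peak number in the pattern was not tested.

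The regions were of moderate strength. Their fold enrichment, the ratio of tags at the summit to the local background, had a median of 6.88 in LysMCre+ replicate 1 (interquartile range 5.32 to 9.03) and of 5.87 in replicate 2 (4.81 to 7.32). The median summit held 21 and 17 tags. By comparison, the 5459 near distal regions called in all 4 libraries had medians of 14.1 and 11.4 in the LysMCre+ libraries and of 12.7 and 6.56 in Rxrab fl/fl replicates 1 and 3. The 10360 regions called in all but Rxrab fl/fl replicate 3 lay between, with 9.89 and 7.86 in the LysMCre+ libraries and 6.35 in Rxrab fl/fl replicate 1. Rxrab fl/fl values are not known for the regions called only without RXR, since the lists hold called peaks only.

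**Figure D1:**
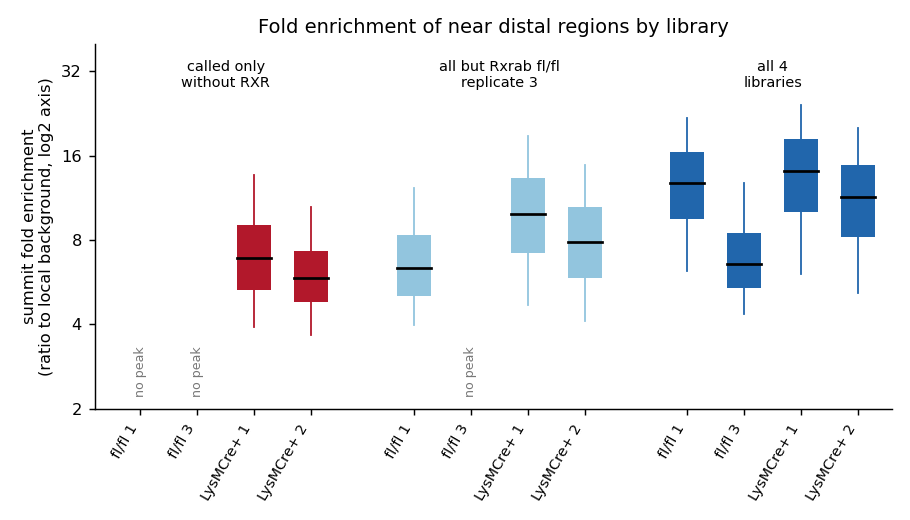
Summit fold enrichment (ratio to the local background, log2 axis) of near distal regions in each library, for 3 patterns of calls. Boxes span the middle of the regions from the first to the third quartile, the black line is the median and the thin lines run from the 5th to the 95th percentile. Regions called only without RXR had medians of 6.88 and 5.87, under those of regions called in all 4 libraries (14.1 and 11.4).

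Of the 10241 regions, 2042 (19.9%) had a mean fold enrichment under 5, 980 (9.57%) had 10 or more, and 274 (2.68%) reached the median of 12.6 found for near distal regions called in all 4 libraries. In both LysMCre+ libraries, 9044 regions (88.3%) exceeded a fold enrichment of 4.00, above which lay 95% of all peaks of Rxrab fl/fl replicate 1. The corresponding value of replicate 3, 4.44, was exceeded by 8069 regions (78.8%). These limits come from other libraries, whose fold enrichments may not be on the same scale. They do not show whether the regions could have been called there. At the edge of the rule, the lowest −log10 q value of a member was 1.82 in either LysMCre+ library, and the weakest Rxrab fl/fl replicate 1 peak that kept a region out had a −log10 q of 2.07 and a fold enrichment of 3.18. The closest region lay 1001 bp from a TSS and the farthest 49963 bp, with the nearest regions outside these limits at 1000 and 50025 bp.

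Among the 26078 near distal regions called in both LysMCre+ libraries, the share without an Rxrab fl/fl peak fell with strength in LysMCre+ Rxrab fl/fl. It was 66.2% in the weakest decile of mean fold enrichment, 49.6% in the fifth and 2.72% in the strongest. Rxrab fl/fl replicate 1 had a peak in 33.7% of regions in the weakest decile and in 97.2% in the strongest, and replicate 3 in 4.72 and 66.7%. The strongest decile thus kept 71 regions with the pattern.

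**Figure D2:**
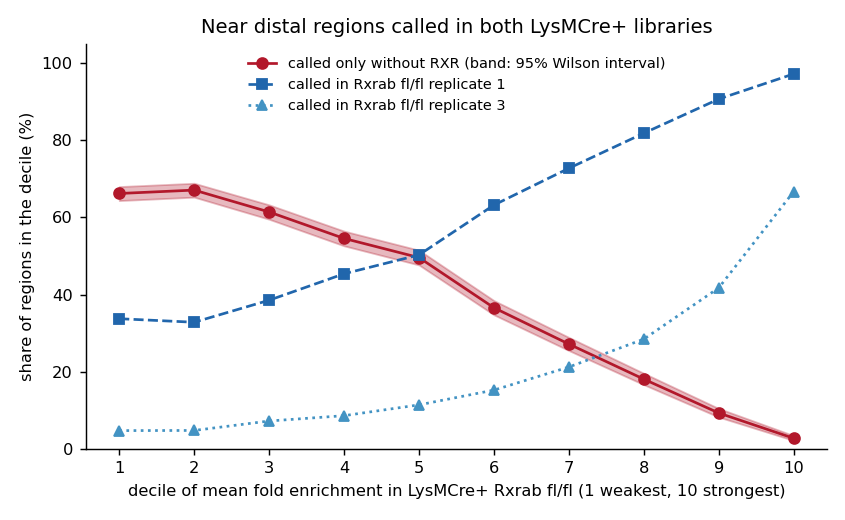
Share (%) of near distal regions called in both LysMCre+ libraries that were called only without RXR (circles, with the 95% Wilson interval as a band), called in Rxrab fl/fl replicate 1 (squares) or in replicate 3 (triangles), by decile of mean fold enrichment in LysMCre+ Rxrab fl/fl. The first share fell from 66.2% to 2.72% while that of replicate 1 rose from 33.7% to 97.2%.

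The rule asks for peaks of both LysMCre+ libraries in 1 merged region, which limits the distance between their summits. Their summits lay a median of 27 bp apart, and within 50 bp in 71.8% of regions (95% Wilson interval 70.9 to 72.6%), against 17 bp and 80.7% for regions called in all 4 libraries. In 10052 regions (98.2%) each library had a single peak. Replicate 1 had the higher fold enrichment in 69.8% of regions. Across the 10241 regions, which share libraries and local background, the log2 fold enrichments of the libraries correlated with a Pearson r of 0.660, against 0.893 across the 5459 regions called in all 4 libraries.

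With respect to genes, 56.2% of the regions were in introns (95% Wilson interval 55.2 to 57.1%), close to the 55.2% of all near distal regions, against 52.7% (51.3 to 54.0%) of those called in all 4 libraries. Fewer lay close to a TSS, with 15.8% at 1 to 5 kb against 19.4% of regions called in all 4 and 17.1% of all near distal regions, and the median distance was 14.5 kb against 13.5 and 14.4 kb. The merged regions had a median width of 344 bp and were narrower than those called in all 4 (558 bp) but close to all near distal regions (349 bp). Beyond the near distal range, the same pattern of calls was found in 11.4% of regions within 1 kb of a TSS, in 28.7% of regions in exons, UTRs or at transcript ends and in 25.2% of distal regions over 50 kb away. Promoters were thus the location with the lowest share, and also that with the highest share called in all 4 libraries, 49.7% against 14.0% of near distal regions. On single chromosomes, the near distal share ran from 23.1% on chromosome 18 to 28.6% on chromosome 15.

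By the rule, no Rxrab fl/fl peak overlapped the regions. Their distances to such peaks are therefore a description, and were not measured for another class. The nearest peak of replicate 1 lay a median of 8.81 kb away, and within 1 kb for 857 regions (8.37%). The nearest of replicate 3 lay 19.5 kb away, and within 1 kb for 271. Another region of the same pattern was a median of 21.5 kb away, and 29.0% had one within 10 kb, against 30.3% among regions called in all 4 libraries. The TSS nearest to a region was itself called in all 4 libraries for 43.3% of regions, against 50.1% for near distal regions called in all 4, and in no library for 27.6 against 23.4%. Over all near distal regions these shares were 44.5 and 27.4%, close to those of the regions.

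The regions were spread over many genes. A TSS of 6594 genes was nearest to at least 1 of them, of 12976 genes nearest to any near distal region, and 4330 of the 6594 had exactly 1. At the other end, 126 genes had 5 or more, 20 had 7 or more and 3 had 10 or more. The 25 genes with the most held 201 regions, 1.96% of all. These genes were ranked by the count itself, so their share of such regions (201 of 443 near distal regions, 45.4%) is a description. They also had more room, with a median of 122 kb of intron and intergenic sequence closest to their TSSs and within the limits of the rule, against 49.1 kb for all genes nearest to a member, and had a median of 0.653 regions per 10 kb, against 0.158 over all genes with a near distal region.

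**Figure D3:**
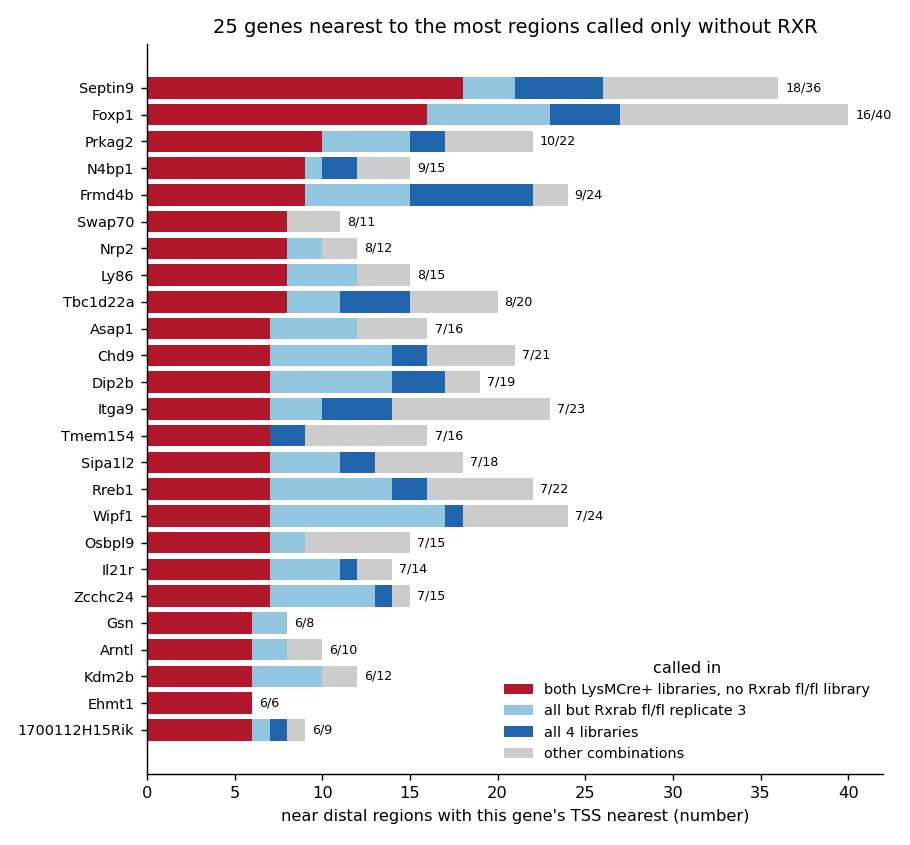
Number of near distal regions nearest to each of the 25 leading genes, by the libraries in which they were called, with the regions called only without RXR and all near distal regions printed at the end of each bar. Septin9 led with 18 of 36, Foxp1 followed with 16 of 40, and all 6 regions of Ehmt1 had the pattern.

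Septin9, a filament-forming GTPase of the cytoskeleton (chromosome 11, 117199661 to 117362325), gathered the most, with 18 of its 36 near distal regions. Of these, 15 lay in introns. Their fold enrichment ranged from 3.97 to 18.8 in LysMCre+ replicate 1 and from 3.32 to 13.0 in replicate 2. The strongest lay in an intron 9.86 kb downstream of its nearest TSS (117275816 to 117276389), with fold enrichments of 18.8 and 13.0 on summits of 90 and 46 tags. The next lay 30.8 kb upstream of the gene (117168692 to 117169059), with 14.7 and 9.38. At the other end, a pair of neighbouring intronic regions (117316913 to 117317300 and 117317669 to 117318118) had 58 and 60 tags in replicate 1 but fold enrichments of 3.97 and 4.51 only, on a high local background. Its lead depended on the TSS set, as with NM transcripts alone Prkag2 came first with 19 and 17 of the 25 genes stayed, and on the number of peaks, as with 16097 peaks in each library Cmip came first with 7 and 3 stayed. Septin9 also had 5 near distal regions called in all 4 libraries and 3 called in all but Rxrab fl/fl replicate 3.

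Foxp1, a forkhead transcription factor of monocyte and macrophage differentiation (chromosome 6, 98925342 to 99520993), had 16 of 40, of which 15 were intronic. The strongest (99007477 to 99008060) had fold enrichments of 14.3 and 9.47 in the LysMCre+ libraries, and the second (99252803 to 99253133) 11.1 and 7.87. The weakest lay 1.17 kb upstream of a TSS, with 4.11 and 2.98. Foxp1 spans many TSSs and 367 kb of eligible sequence, so that its 0.435 regions per 10 kb were under the median of the 25 leading genes, whereas Septin9 had 0.926.

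**Figure D4:**
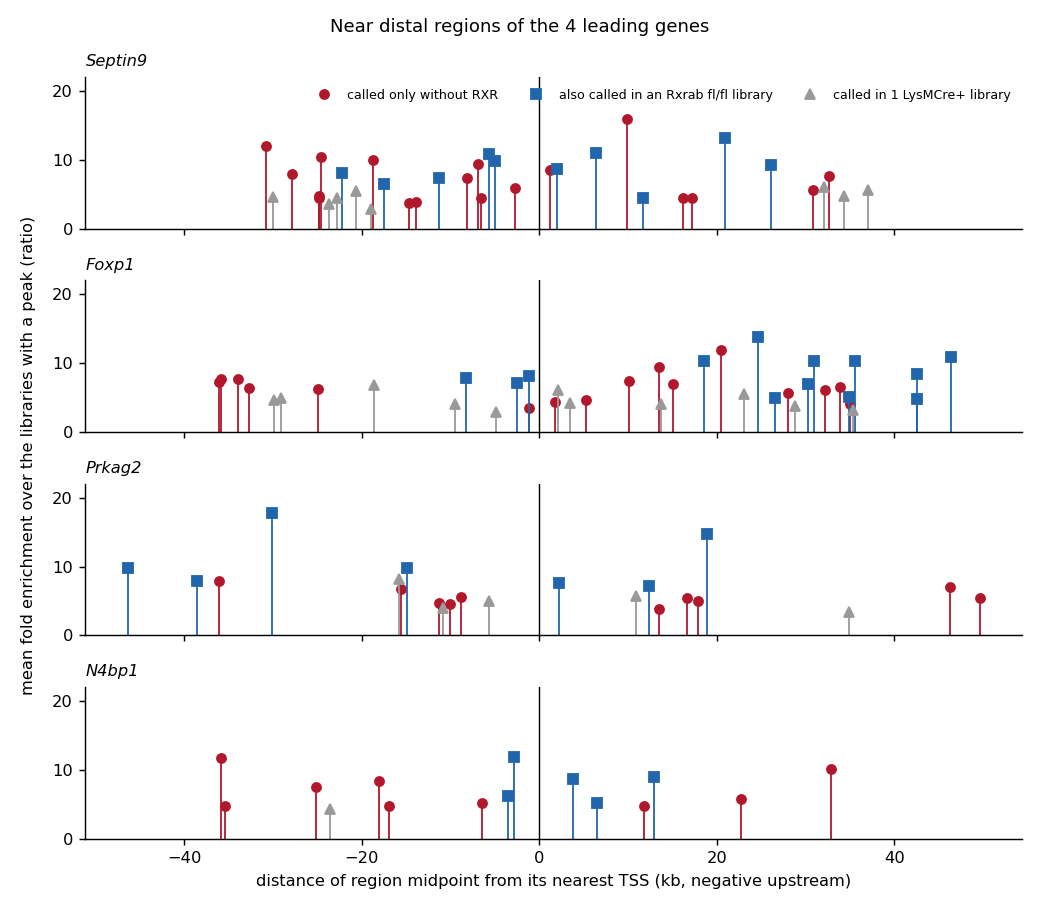
Near distal regions of Septin9, Foxp1, Prkag2 and N4bp1, by the distance of the midpoint from the nearest TSS of the gene (kb, negative upstream) and the mean fold enrichment over the libraries with a peak. Circles are regions called only without RXR (18, 16, 10 and 9), squares are regions also called in an Rxrab fl/fl library and triangles are those called in 1 LysMCre+ library. The 3 kinds lay among each other on both sides of the TSS, except that the only triangle of N4bp1 was upstream.

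The other leading genes are given by what they are known to do, an order that was not tested. Prkag2, a regulatory subunit of AMP-activated protein kinase, had 10 of 22, all intronic, with fold enrichments from 3.62 to 8.61 and from 3.35 to 7.08 in the LysMCre+ libraries. N4bp1, a restrainer of NF-kB signalling and cytokine production, had 9 of 15, of which 6 were upstream of its TSS. Ly86, which encodes the MD-1 partner of the RP105 receptor of lipopolysaccharide responses, had 8 of 15. Il21r, the interleukin-21 receptor, had 7 of 14, of which the strongest was intronic 20 kb from the TSS, with 12.3 and 8.37. Osbpl9, a sterol-binding protein, had 7 of 15.

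Several of the 25 encode proteins of actin, adhesion or membrane traffic. Swap70, a Rac-binding exchange factor, had 8 of 11, and none of its near distal regions was called in all 4 libraries or in all but Rxrab fl/fl replicate 3. The strongest Swap70 region lay 31.4 kb upstream, with fold enrichments of 11.7 and 13.0. Nrp2, the neuropilin-2 receptor of semaphorins and VEGF-C, had 8 of 12, the strongest being 24.3 kb upstream with 11.1 and 9.82. Gsn, the actin-severing gelsolin, had 6 of 8, led by a region 1.3 kb upstream of a TSS with 12.2 and 12.8. Frmd4b (9 of 24), Asap1, an Arf GTPase-activating protein (7 of 16), Itga9, an integrin chain (7 of 23), and Wipf1, the WASP-interacting protein (7 of 24), belonged here too.

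Ehmt1, the H3K9 methyltransferase GLP, had 6 near distal regions and all 6 were called only without RXR, with fold enrichments from 5.59 to 13.0 and from 5.61 to 8.12. Extl3, a heparan sulfate glycosyltransferase that is not among the 25, had 5 of 5. Of 2538 genes with at least 5 near distal regions, 456 had none with the pattern. Kdm2b, a histone demethylase, had 6 of 12, Chd9, a chromatin remodeller, 7 of 21, Rreb1, a zinc finger factor, 7 of 22, and Arntl, the clock factor BMAL1, 6 of 10. The Arntl regions ranged from 5.07 to 11.6 and from 3.71 to 11.4. Dip2b (7 of 19), Tbc1d22a (8 of 20), Tmem154 (7 of 16), Sipa1l2 (7 of 18), Zcchc24 (7 of 15) and 1700112H15Rik (6 of 9) completed the 25.

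Ranking by density changed the picture. Of genes with at least 5 regions, Malat1, an abundant nuclear long non-coding RNA, had the most per 10 kb (2.50), yet the median fold enrichment of its 5 regions was 2.57 and 2.34 in the LysMCre+ libraries. Malat1 also held 3 of the 13 regions with a summit of 100 or more tags in both LysMCre+ libraries, a limit set after the values were seen. These 13 had median fold enrichments of 2.64 and 2.57, against a median background of 48.4 and 44.9 tags (with the pseudocount of 1), compared with 2.74 and 2.60 tags over all 10241. They thus stood on a high local background. Ndufb9 (1.18 per 10 kb), Ehmt1 and Nup107 (1.14 each) followed, and 8 of the 25 genes with the highest density were among the 25 with the highest count.

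The single regions of greatest strength were at other genes. The highest mean log2 fold enrichment was found in an intron 47.7 kb from the predicted gene Gm51803 (chromosome 10, 60639229 to 60639727), with 20.2 and 17.9 in the LysMCre+ libraries on 79 and 57 tags. A region 10.4 kb upstream of Rflna, an actin-bundling regulator (chromosome 5, 124992892 to 124993292), had 22.5 and 15.7 on 120 and 52 tags. Regions nearest to Dis3, an exosome ribonuclease, Htr6, a serotonin receptor, Anxa11, an annexin, and Plcl1 had 22.5 and 15.6, 22.8 and 15.2, 21.2 and 16.1, and 23.2 and 14.6. Those of Hmgb1-rs17, Tmem242 and Ccdc80 followed, with mean fold enrichments of 18.4, 18.3 and 18.3.

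At the targeted genes, Rxra had 6 of its 20 near distal regions called only without RXR, with fold enrichments from 3.36 to 5.04 and from 2.74 to 5.41 in the LysMCre+ libraries. The strongest, in an intron on chromosome 2 from 27716182 to 27716848, had 5.04 and 5.41 on 140 and 141 tags. Another intronic region (27690786 to 27691439) had 4.23 and 3.97 on 121 and 106 tags. These were the Rxra regions among the 13 with 100 or more tags. A further 5 of the 20 Rxra regions were called in all 4 libraries. Rxrb had no near distal region.

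Genes of LPM identity gathered few of the regions. Of 23 genes of this list in the annotation, 20 had none, and 4 of 115 near distal regions had the pattern (3.48%, 95% Wilson interval 1.36 to 8.60%), beside 26.2% over all genes. These 4 were nearest to Icam2 (2 of 6), an adhesion molecule, Ltbp1 (1 of 11), which stores latent TGF-beta, and Serpinb2 (1 of 7), a protease inhibitor. Gata6, the factor that defines the LPM programme, had 0 of 3, Thbs1 0 of 7, Naip1 0 of 4, Cd5l 0 of 3, Ccnd1 0 of 5, Arg1 0 of 4 and Rarb, a retinoic acid receptor, 0 of 12. In contrast, 35 of the 115 (30.4%) were called in all 4 libraries, against 14.0% over all genes. In strength the list was close to the rest, as 79 of its regions were called in both LysMCre+ libraries with a median fold enrichment of 7.86, against 8.0 over all such regions, and 4 of the 79 (5.06%, 1.99 to 12.3%) lacked an Rxrab fl/fl peak, beside 39.3% over all genes. The low count rested on Rxrab fl/fl replicate 1, which had a peak in 75 of the 79. Without that library the share was 41.1% (44 of 107), beside 53.7% over all near distal regions. The list includes genes that the study named from these mice and is no independent evidence.

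Genes of small peritoneal macrophages (SPMs) and monocyte-derived macrophages did not share this, with 20 of 74 regions (27.0%, 18.2 to 38.1%). Of the 20 genes of this list, 16 had a near distal region and 11 had at least 1 with the pattern. Cd209d and Clec4b1 had no near distal region. Fcrls had 4 of 7, Plac8 4 of 12, Ccr2, the chemokine receptor of monocytes, 2 of 5, Lyve1 2 of 4 and Clec10a 2 of 5. Mrc1 had 1 of 7, Retnla 1 of 3 and Irf4 1 of 8. Of the 45 regions of the list called in both LysMCre+ libraries, 20 (44.4%, 30.9 to 58.8%) lacked an Rxrab fl/fl peak. This was close to the 39.3% of all genes. The strongest Fcrls region by its mean lay 10.9 kb upstream with fold enrichments of 9.03 and 9.77. Genes of MHC class II and co-stimulation had 8 of 61 (13.1%, 6.80 to 23.8%).

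Transcription factors of macrophages had 40 of 235 (17.0%, 12.8 to 22.3%). Irf8, which directs monocyte and dendritic cell fate, had 6 of 15, and Cebpa, Mitf and Runx3 had 4 each, of 13, 17 and 12. AP-1 and ATF genes had 10 of 71 (14.1%, 7.83 to 24.0%), with 3 of 5 at Fosl2. RXR and its partner receptors had 23 of 113 (20.4%, 14.0 to 28.7%). Besides Rxra these included Pparg, the lipid-sensing receptor, with 4 of 14, of which the strongest lay 17.7 kb upstream with 9.29 and 8.98, and Ppard with 3 of 4. Lipid and cholesterol genes, many of them targets of LXR:RXR and PPAR:RXR, had 37 of 145 (25.5%, 19.1 to 33.2%). The cholesterol exporter Abcg1 had 6 of 14, led by an intronic region with 13.6 and 6.62, and the HDL receptor Scarb1 had 6 of 13, led by one with 12.4 and 8.94.

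Among the other lists, cytokine and chemokine receptors had 32 of 155 (20.6%), with 5 of 12 at Il6ra and 4 of 8 at Tgfbr2, integrins and adhesion molecules 29 of 126 (23.0%), Toll-like receptor and NF-kB genes 25 of 109 (22.9%), apoptosis genes 14 of 60 (23.3%, 5 of them at the BH3 protein Bid) and cell cycle genes 11 of 54 (20.4%). Lists for other cell types had 3 of 20 (B cell, 15%), 8 of 33 (T and NK cell, 24.2%), 8 of 38 (dendritic cell, 21.1%), 7 of 27 (granulocyte and mast cell, 25.9%) and 11 of 34 (mesothelial, stromal and endothelial, 32.4%, 19.1 to 49.2%). Of the 16 genes of this last list, 15 had a near distal region and 6 had at least 1 with the pattern. It included 3 of 4 at Upk3b and 2 of 2 at Msln, mesothelial markers whose TSSs had no peak in any library. Wt1, another such marker, had no near distal region. The intervals of LPM genes, MHC class II genes, macrophage transcription factors and AP-1 and ATF genes lay under the 26.2% of all near distal regions, and those of the other lists given here held it. This order is a description, as regions of 1 gene are not independent and no list was tested. It also depends on the regions counted. Of regions called in both LysMCre+ libraries, cytokine and chemokine receptors had 27.6% (20.3 to 36.3%), under the 39.3% of all genes.

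Letters matching the CTCF motif were common in the regions. Within 100 bp of the strongest LysMCre+ summit, 1935 of 10241 regions held a match to CTCF, allowing 1 mismatch (18.9%, 95% Wilson interval 18.1 to 19.7%). The share was 5.22% (4.66 to 5.84%) in near distal regions called in all 4 libraries, 13.6% in those called in all but Rxrab fl/fl replicate 3 and 14.1% in all near distal regions. The difference from regions called in all 4 was 13.7 percentage points (12.7 to 14.6 points). It was 8.18 points without Rxrab fl/fl replicate 3 and 8.11 points with equal numbers of peaks in the libraries. Matches also lay closer to the summit, with a median of 19.5 bp and 61.9% within 25 bp (59.7 to 64.0%), against 40.5 bp and 34.0% (28.8 to 39.7%) in the 285 matches of regions called in all 4 libraries. Regions with and without a match had similar fold enrichments, with medians of 7.03 and 6.25 against 6.88 and 5.77, and those with a match were less often intronic (47.9 against 58.1%).

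Of the motifs of macrophage enhancer factors, AP-1 (TGANTCA on either strand) was found in 11.4% (10.8 to 12.0%), against 21.6% of regions called in all 4 libraries and 15.2% of all near distal regions. C/EBP (TTGCNNAA) was found in 9.51%, against 16.0 and 12.4%. The difference from regions called in all 4 was −10.2 percentage points for AP-1, which became −6.66 with equal numbers of peaks, and −6.46 for C/EBP, which became −4.16 without Rxrab fl/fl replicate 1. PU.1 (GAGGAAGT) was found in 10.9%, against 11.8 and 10.7%, a difference from the regions called in all 4 of −0.824 percentage points (−1.88 to 0.210). RUNX (TGTGGTT) was found in 6.43%, against 7.73 and 6.77%, a difference from the regions called in all 4 of −1.30 points (−2.17 to −0.457). These intervals cover counting error over regions only and are not tests. With CTCF added, at least 1 of the 5 motifs was in 48.9% of the regions and in 51.0% of those called in all 4.

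The contrasts of CTCF, AP-1 and C/EBP kept their direction in most or all deciles of strength, and that of RUNX in most. The comparison class here was wider than regions called in all 4 libraries, as 1 Rxrab fl/fl peak was enough. Within deciles of LysMCre+ fold enrichment, the CTCF share of regions called only without RXR was higher than that of regions also called in an Rxrab fl/fl library in 9 of 10 deciles, for example 23.2% (21.1 to 25.5%) against 10.9% (9.24 to 12.8%) in the fourth. The exception was the strongest, with 3 of 71 regions (4.23%, 1.45 to 11.7%) against 8.95%. The AP-1 and C/EBP shares were lower in all 10. The AP-1 gap was small in deciles 8 (14.4 against 16.5%) and 9 (17.4 against 18.4%). Its intervals overlapped in these and in decile 10 (16.9 against 22.7%). The PU.1 share was higher in 7 of 10 and the RUNX share in 3 of 10, and for both the intervals overlapped in every decile. Among the 274 strongest, CTCF was in 14.6%, AP-1 in 18.2% and PU.1 in 15.7%.

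**Figure D5:**
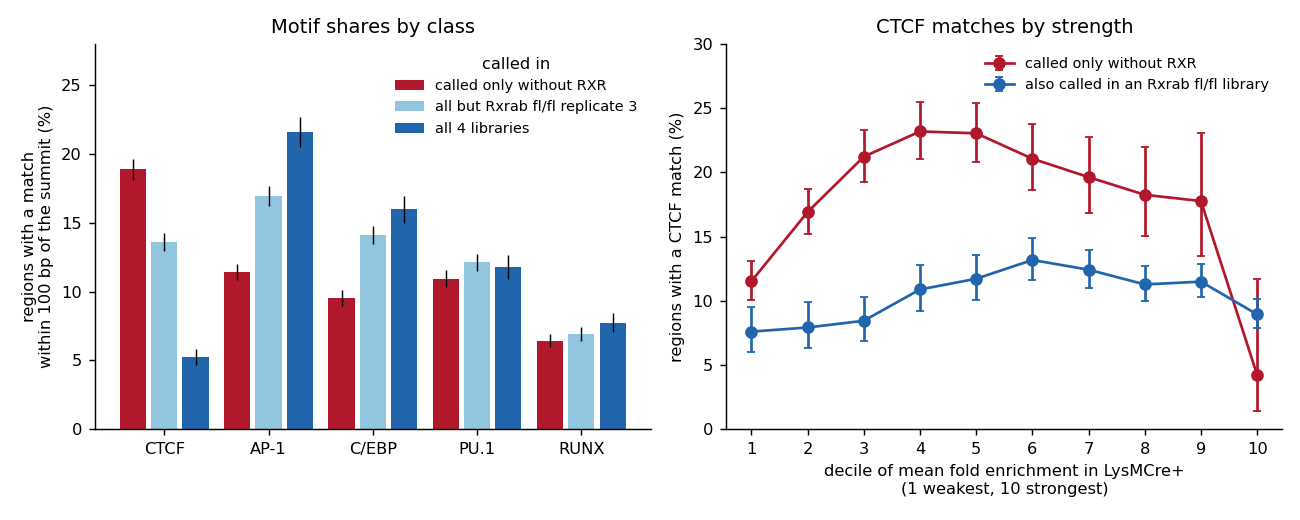
Left, share of regions (%) with a motif match within 100 bp of the summit for 3 patterns of calls, with 95% Wilson intervals. Right, share (%) with a CTCF match by decile of mean fold enrichment in LysMCre+ Rxrab fl/fl, for regions called only without RXR and for those also called in an Rxrab fl/fl library. CTCF was in 18.9% of the former class and in 5.22% of regions called in all 4 libraries, whereas AP-1 was in 11.4 and 21.6%.

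At the leading genes CTCF matches were less common, while the shares of the other motifs were close to those of all the regions. Of the 201 regions of the 25 genes, 22 held a CTCF match (10.9%, 7.34 to 16.0%), beside 18.9% of all 10241. AP-1 was in 20 (9.95%), PU.1 in 22 (10.9%), C/EBP in 20 (9.95%) and RUNX in 10 (4.98%). Over all 10241 regions, these shares were 11.4, 10.9, 9.51 and 6.43%. Septin9 had 1 CTCF match among 18, the region printed above (fold enrichments 7.11 and 8.91), 4 AP-1 and 3 PU.1 matches, and Foxp1 had no CTCF match among 16. Kdm2b had the most CTCF matches, 3 of 6.

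Further motifs are given beside their share in regions called in all 4 libraries. The GATA motif, spelled AGATAAG, was in 1.62% (1.39 to 1.88%) against 3.0% of regions called in all 4 libraries, MEIS (TGACAG) in 16.6% (15.9 to 17.3%) against 20.6% (19.5 to 21.6%), KLF (CCACACCC) in 3.67 against 3.99% and ATF (TGACGTCA) in 0.293 against 0.971%. STAT (TTCNNNGAA) was in 6.35 against 5.73%, E2A (CAGCTG) in 16.3 against 17.5%, TCF (CTTTGAT) in 2.12 against 1.91% and MITF (TCACGTGA) in 0.195 against 0.348%. Among the motifs of RXR dimers, the direct repeat with a spacer of 1 base (DR1) was in 11 regions (0.107%) against 12 of 5459 (0.220%), DR4 in 7 against 6, and DR5, the repeat bound by RAR:RXR, in 5 (0.0488%, 0.0209 to 0.114%) against 17 (0.311%, 0.195 to 0.498%). The ISRE (2.92 against 3.19%), PU.1-IRF (4.72 against 5.53%), NF-kB (1.22 against 1.76%) and EBF (0.723 against 0.733%) motifs were searched too. Over all near distal regions, GATA was in 2.36%, MEIS in 17.8%, KLF in 3.86%, ATF in 0.440%, STAT in 6.18%, E2A in 16.0%, TCF in 2.06%, MITF in 0.299%, DR1 in 0.184%, DR4 in 0.0997%, DR5 in 0.164%, ISRE in 3.31%, PU.1-IRF in 4.95%, NF-kB in 1.43% and EBF in 0.590%. A match is a description of the letters and not of binding. The median GC content was 50.2%, with 13.0% of bases masked as repeats and 3.39 CpGs per window, close to the 50.2%, 12.5% and 3.52 of all near distal regions. Regions called in all 4 libraries had 51.7%, 8.70% and 4.38.

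The leading genes were ranked on the same libraries and the same contrast, so what follows is a description and no independent evidence. Their regions called in all 4 libraries were compared between the genotypes. The 43 such near distal regions had a median difference in centred log2 fold enrichment, LysMCre+ Rxrab fl/fl minus Rxrab fl/fl, of −0.00 (interquartile range −0.38 to 0.28), and 21 of 43 were higher in LysMCre+ Rxrab fl/fl, beside a median of 0.01 and 2764 of 5459 over all near distal regions of this kind. On the summit pileup the median was 0.42 (0.01 to 0.82), beside 0.04 (−0.36 to 0.44) for all, so that the answer at these genes depended on the measure. Including those near the TSS, the 5 regions of Septin9 had a median difference in fold enrichment of 0.46 and the 7 of Foxp1 of 0.47, while the 5 of Itga9 had −0.42. With 2 libraries per genotype, the smallest two-sided p of an exact permutation test would be 0.333, so no test was made.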

How the data were processed

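ATAC-seq was performed on LPMs of 2 genotypes, with 2 libraries for each. The authors mapped read pairs to mm10 (Bowtie2), dropped duplicates and all reads from the mitochondrial genome and the sex chromosomes, and called peaks in every library with MACS2 2.1.1 (version from the submitters' processing notes) at a q value of 0.05 with an extension of 200 bp. The deposited lists give the fold enrichment of each summit, a ratio to local background. They also give −log10 p and q values as deposited, an integer score, deposited but not used here, and the summit offset. Read counts were not analysed here.

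Peaks sharing at least 1 bp were merged, and regions placed by midpoint on 43783 RefSeq NM and NR transcripts of 24963 genes. Exons, UTRs and 100 bp before to 1 kb after transcript ends were left out, and each region went to the gene of its nearest TSS. The summit pileup was solved from fold enrichment and p value (pseudocount 1), which gave whole tags for 96.2 to 98.2% of peaks. Windows of 100 bp either side of the strongest LysMCre+ summit were searched for 20 motifs on both strands, and sequences were read from the RefSeq copy of mm10. The log2 fold enrichment of regions shared by all libraries was centred on the library median. Merging was checked against bedtools 2.31.1, and pileups and motif matching were tested on simulated data. Python 3.11.15, pandas 2.3.3, numpy 2.4.6 and pysam 0.24.0 were used.

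The genes named are the 25 with the most regions, those nearest to the 10 strongest regions, genes with 5 or more near distal regions that all had the pattern, genes of 18 lists with 4 or more, the targeted genes and genes the study names; list members under 4 are examples chosen after their values were seen. A list and a gene that these rules name are not reported here. The regions, lists and rules were chosen with earlier results of these data known. The depth is known only through the lowest background, 1.06 to 1.97 tags per 200 bp. Intervals on shares are Wilson 95% intervals, and those on differences of shares are built from them. Both cover counting error over regions, not the spread between mice. Alternatives were a q value of 0.01, equal numbers of peaks, widened summits, each library left out, other TSS sets, placement by summit, a 5 kb limit, a ranking by density, other motif windows and the pileup.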

Additional observations from a re-analysis of the deposited data

How the results depend on the processing

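A q value of 0.01 and placement by summit changed no count or share beyond its interval. With 16097 peaks in each library, the regions numbered 1085 (11.4% of near distal regions). Their median mean log2 fold enrichment rose from 2.67 to 3.86. Of the 25 leading genes 3 stayed, with Cmip first, and the share for SPM genes was 9.09%, but on 11 regions only (1 of 11). At this setting, CTCF was in 13.4%, AP-1 in 16.4%, PU.1 in 14.4%, C/EBP in 7.93% and RUNX in 7.10% of regions. The difference from regions called in all 4 libraries was 8.11 percentage points for CTCF, −6.66 for AP-1 and, reversed, 0.957 for PU.1. With summits widened by 100 bp the share was 24.9%. Leaving out each library in turn gave 10259 to 20612 regions, 26.3 to 53.7% of near distal regions, median log2 fold enrichments of 2.47 to 2.87, and 12 to 25 of the leading genes, with Foxp1 ahead without Rxrab fl/fl replicate 1 and Septin9 otherwise. Without 1 library the shares ran from 3.48 to 41.1% for LPM genes and 27.0 to 54.3% for SPM genes, from 16.2 to 18.9% for CTCF, 9.90 to 14.2% for AP-1, 9.77 to 11.5% for PU.1, 9.52 to 11.8% for C/EBP and 6.37 to 6.68% for RUNX. The differences ran from 8.18 to 12.4 points for CTCF, −11.3 to −7.12 for AP-1, −2.23 to −0.226 for PU.1, −7.09 to −4.16 for C/EBP and −1.51 to −0.744 for RUNX. With TSSs of NM transcripts alone, 17 of the 25 leading genes stayed and Prkag2 led with 19. Ranking by density kept 8 of 25.

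A motif window of 50 bp either side gave 16.1% for CTCF, 7.31% for AP-1, 8.09% for PU.1, 5.33% for C/EBP and 3.80% for RUNX, with differences of −7.18 (AP-1), −4.29 (C/EBP), −0.360 (RUNX) and, reversed, 0.584 points (PU.1). The stronger regions alone, those at or above the median, held CTCF in 21.4%, AP-1 in 12.2%, PU.1 in 11.6% and C/EBP in 8.73%, and the CTCF difference was 16.2 points. At regions of the leading genes called in all 4 libraries, the median of −0.00 became 0.42 on the pileup, and the cause was not tested. No paired analysis was possible because the genotypes share the replicate number 1 alone and no result comes from a test. Of 167 recomputed values, 104 kept within the bounds set for them, 60 moved and 3 changed sign.

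Signal under the threshold of 6 to 8 tags at the lowest background is not visible in the lists. The weakest summits of the regions held 7 tags, so that values of weak regions are coarse.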
